A study of Mus musculus with 3 samples.

Results

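The CD300 receptors are a family of small immunoglobulin-domain proteins on the surface of myeloid cells. The genes described here were taken by name, 6 of the 32285 features in the count tables: Cd300a, Cd300lf, Cd300lb, Cd300c2, Cd300ld and Cd300e. Their transcripts were followed in peripheral blood (PB) leukocytes of naive wild type Balb/C mice and of wild type Balb/C mice carrying BBC2 cells, in 1 library for naive blood and 1 each for day 11 (D11) and day 14 (D14) after transplantation. BBC2 is a cell line of stem cell leukemia/lymphoma syndrome (SCLL) that carries the BCR-FGFR1 chimeric kinase and GFP and grows as a pro-B-like leukemia; D11 was taken as an intermediate stage and D14 as a late stage. The methods give 6 to 8 weeks as the age and female as the sex of engrafted mice. The leukemia was thus a single transplanted line in hosts with their own blood cells. The number of mice in each library is not given in the sources used here.

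CD300 receptors bind lipids, among them phospholipids exposed on dying cells. Cd300a and Cd300lf carry inhibitory motifs in their cytoplasmic tails and recruit phosphatases such as Ptpn6 and Ptpn11. Cd300lb, Cd300c2, Cd300ld and Cd300e have short tails and signal through adaptor chains such as Tyrobp and Fcer1g. In blood, the family is known from neutrophils and monocytes, where classical monocytes (cMonos), which enter inflamed tissue, are distinguished from non-classical monocytes (ncMonos), which survey the vessel wall.

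The 6 genes lie in a cluster of 244 kb on chromosome 11 of GRCm38, between 114890041 and 115133992, with Cd300a on the plus strand and the other 5 on the minus strand (GENCODE vM21). Cd300a (ENSMUSG00000034652) spans 114890041 to 114904654. Cd300lb (ENSMUSG00000063193) spans 114922781 to 114934386 and Cd300ld (ENSMUSG00000034641) 114982274 to 114989922. Cd300c2 (ENSMUSG00000044811) spans 114996721 to 115001880, Cd300e (ENSMUSG00000048498) 115051917 to 115062177 and Cd300lf (ENSMUSG00000047798) 115116214 to 115133992. Cd300lf lies within Rab37 (115091431 to 115162236, plus strand), with no shared exon base. Whether the counting used strand is not given in the sources used here. Rab37 itself had 1.05, 0 and 2.07 CPM in naive, D11 and D14 ncMono-like cells and 51.3, 40.8 and 37.4 CPM in neutrophil-like cells.

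The stretches just before the start sites of 3 members are shown, because these members stood at the ends of the pattern described below: Cd300lf was highest in neutrophil-like cells, and Cd300ld and Cd300e in ncMono-like cells. They are minus-strand sequence of GRCm38.p6 from RefSeq, read 5′ to 3′, and stop before the first annotated exon base. They cover chr11:115133993-115134242 for Cd300lf (250 bases, in a Rab37 intron), chr11:114989923-114990136 for Cd300ld (214 bases, intergenic) and chr11:115062178-115062289 for Cd300e (112 bases, intergenic). Capitals mark the letters GAGGAA or their reverse complement TTCCTC, the core of the site of PU.1, a factor of the myeloid lineage.
Cd300lf: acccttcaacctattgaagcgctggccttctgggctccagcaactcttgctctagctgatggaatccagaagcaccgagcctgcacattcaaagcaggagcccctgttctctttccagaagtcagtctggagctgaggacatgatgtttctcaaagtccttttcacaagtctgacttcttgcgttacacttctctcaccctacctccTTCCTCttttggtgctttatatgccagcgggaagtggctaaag
Cd300ld: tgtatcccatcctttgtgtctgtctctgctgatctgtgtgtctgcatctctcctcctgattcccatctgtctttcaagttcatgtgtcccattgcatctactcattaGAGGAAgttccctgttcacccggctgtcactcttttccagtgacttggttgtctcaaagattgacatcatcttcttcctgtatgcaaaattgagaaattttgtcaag
Cd300e: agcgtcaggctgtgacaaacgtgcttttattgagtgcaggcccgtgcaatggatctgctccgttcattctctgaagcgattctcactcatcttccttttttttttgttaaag
Cd300lf and Cd300ld each held 1 such match and Cd300e none. Of all 32851 RefSeq windows cut to the same length, 23.3% (250 bases), 19.9% (214 bases) and 11.2% (112 bases) held a match, so the presence of 1 is common. The C/EBP-like letters TTGCNNAA and the NR4A element AAAGGTCA, each also searched as its reverse complement, were in none of the 3 stretches, against 9.56%, 8.58% and 4.62% of windows for the former and 1.34%, 1.16% and 0.588% for the latter. A match is a description of the letters and not of binding.

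The libraries held 5386, 8536 and 9337 barcodes and 30362408, 57640396 and 65861863 UMIs for naive, D11 and D14, and 3811, 4567 and 4414 barcodes passed the minimum of 200 genes and the maximum of 10% mitochondrial UMIs. Hemoglobin took 2.42%, 37.4% and 11.8% of the UMIs kept. A cell was placed in a class when at least 3 markers of that class had a UMI, and cells that met 2 such gates (266, 344 and 426) were set aside. Classes carry the ending "-like" because they rest on these markers alone. There were 120, 189 and 591 ncMono-like cells, 86, 124 and 20 cMono-like cells and 1308, 1663 and 1330 neutrophil-like cells. Pro-B-like cells numbered 0, 90 and 633. Between 3 and 5 barcodes were shared by any pair of libraries. Levels are given in CPM of the UMIs summed over a class, and brackets hold exact 95% intervals, which cover counting error only. With 1 library per condition nothing was tested, and a difference between conditions cannot be told apart from a difference between libraries. UMIs count molecules at their 3′ end, so levels were not divided by transcript length and are not ranked between genes.

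Transcripts of the family were found in monocyte-like and neutrophil-like cells and were at or near background in lymphoid and erythroid-like cells. In the plot of levels by class, Cd300e occupied a single class, Cd300ld a pair, and Cd300a, Cd300lb and Cd300c2 all 3 myeloid classes. Cd300lf stood mainly in neutrophil-like cells, with far lower levels in the monocyte classes.

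Cd300a, an inhibitory receptor for phosphatidylserine and phosphatidylethanolamine, stood at 765 [711 to 823], 549 and 405 CPM in naive, D11 and D14 ncMono-like cells. In neutrophil-like cells it was at 596 [575 to 619], 378 and 178 CPM, and in cMono-like cells at 408 [370 to 448], 322 and 247 CPM. ncMono-like cells were thus highest in each library. Neutrophil-like cells came next in naive blood and at D11 and last at D14, by ratios whose intervals excluded 1. The naive library held only 3 dendritic-like cells, too few to give a level of the class. In them 20 UMIs gave 377 CPM [230 to 582], an interval that holds the cMono-like level. The 5 dendritic-like cells of D11 held 17 Cd300a UMIs and the 2 of D14 held 3. Basophil-like cells, 10, 9 and 2 in naive, D11 and D14 blood, held 5, 4 and 3 Cd300a UMIs, and were also too few. T-like, NK-like, mature B-like and pro-B-like cells had at most 3.11 CPM.

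Cd300lf, an inhibitory receptor also known as the entry receptor of murine norovirus, was highest in neutrophil-like cells, with 797, 664 and 740 CPM. The cMono-like level was 31.0, 36.6 and 103 CPM and the ncMono-like level 23.2, 16.8 and 69.2 CPM. The neutrophil-like level was 34.3-fold the ncMono-like level in naive blood, 39.5-fold at D11 and 10.7-fold at D14. Among lymphoid classes the highest level was 21.5 CPM, from 8 UMIs in 43 mature B-like cells at D14. That class held 17 UMIs in 382 naive cells and 17 in 256 D11 cells.

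Cd300lb, an activating receptor that signals through Tyrobp, was at 421, 303 and 183 CPM in neutrophil-like cells. Its ncMono-like level was 135, 131 and 100 CPM and its cMono-like level 68.6, 60.7 and 33.3 CPM. The order of the 3 classes was the same in every library.

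Cd300c2, an activating receptor that pairs with Tyrobp or Fcer1g, had an ncMono-like level of 535, 584 and 433 CPM. Neutrophil-like cells held 268, 169 and 56.5 CPM and cMono-like cells 144, 76.6 and 30.5 CPM. In the 3 naive dendritic-like cells 8 UMIs gave 151 CPM [65.1 to 297], which overlaps both of the latter.

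Cd300ld, which signals through Fcer1g, had an ncMono-like level of 287, 437 and 353 CPM. Neutrophil-like cells held 58.5, 46.0 and 27.9 CPM, and cMono-like cells 6.58, 4.83 and 2.78 CPM, from 7, 7 and 1 UMIs. Cd300e, which pairs with Tyrobp, had an ncMono-like level of 234, 450 and 383 CPM. Only 7, 5 and 10 of its UMIs were in neutrophil-like cells (1.48, 0.765 and 1.67 CPM) and none in cMono-like cells, where 0 UMIs allow up to 2.82, 2.07 and 8.33 CPM. It was also at 0 in mature B-like cells of all 3 libraries.

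**Figure D1:**
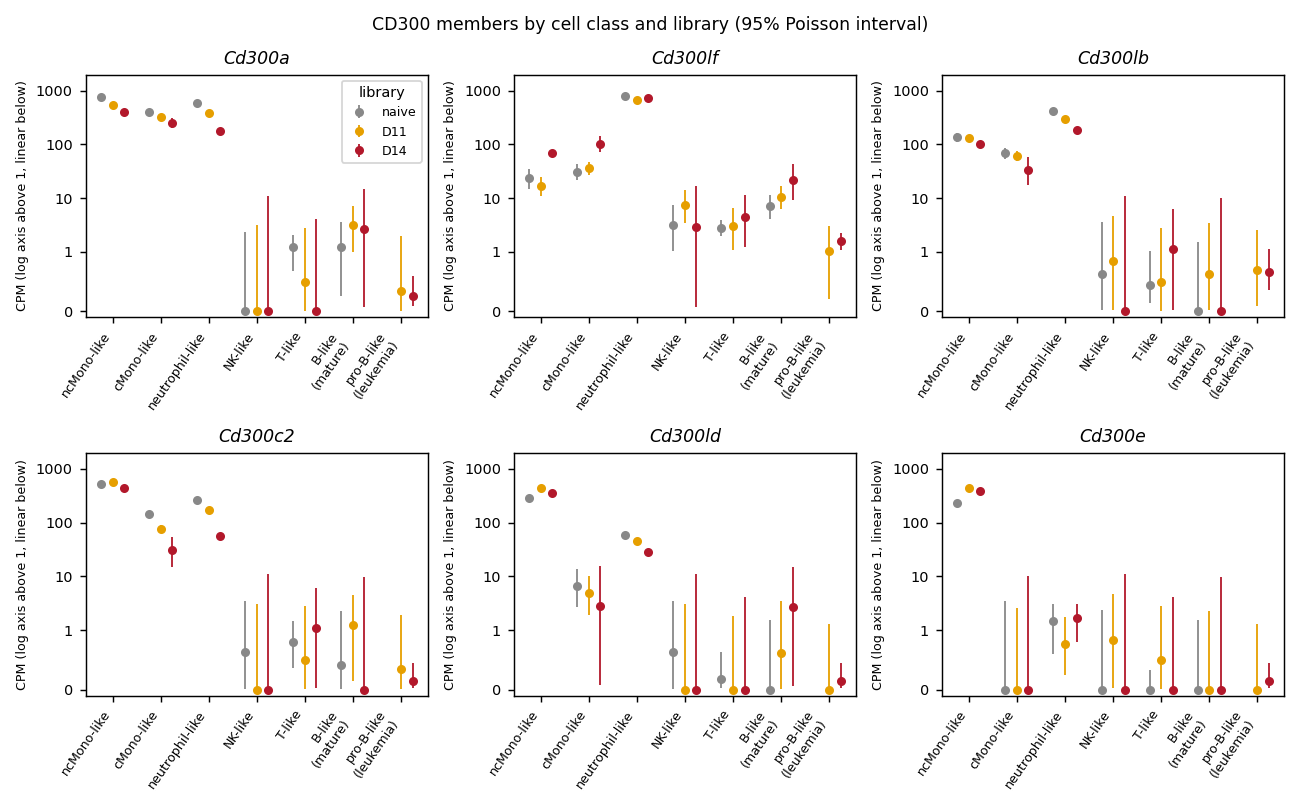
Level of each CD300 member in CPM (logarithmic above 1, linear below) in 7 cell classes, with points for the naive, D11 and D14 libraries and bars for the exact 95% Poisson interval. Cd300e stands between 234 and 450 CPM in ncMono-like cells and below 2 CPM in every other class drawn, whereas Cd300lf stands between 664 and 797 CPM in neutrophil-like cells.

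The genes whose levels most resembled those of a member differed between members. Likeness was the Pearson correlation of log2(CPM + 1) over 20 sums of class and library with at least 50 cells, among 6874 genes, and the sums of a library share its depth and free RNA. Cd300e was most like Adamdec1 (r = 0.993), Fabp4 (0.988), a fatty acid-binding protein, and Ccdc192 (0.976). As Cd300e was almost absent outside the ncMono-like sums, its correlations rest on these few sums. Cd300ld was most like Treml4 (0.980), itself a marker of the ncMono gate, the IgG receptor gene Fcgr4 (0.977) and the oxidized lipoprotein receptor gene Olr1 (0.972). Cd300lf was most like 9130230L23Rik (0.963), Dmxl2 (0.963) and Csf3r (0.959), the last a marker of the neutrophil gate. Cd300a was most like Il13ra1 (0.993), Ltbr (0.991) and Tlr8 (0.991), Cd300lb like Pla2g7, Klra2 (both 0.986) and Sirpb1a (0.985), and Cd300c2 like Cd300a (0.985), Hgf (0.985) and Tlr8 (0.984). Within the family the correlation was lowest between Cd300e and Cd300lf (0.255).

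Between the 2 monocyte classes, Cd300e, Cd300ld and Cd300c2 were higher in ncMono-like cells, whereas Cd300lf was not. The ncMono-like level of Cd300e was at least 83.1-fold the cMono-like level in naive blood, at least 217-fold at D11 and at least 46.0-fold at D14, counting 0 UMIs as 3. Cd300ld was 43.6-fold higher in naive blood and 90.6-fold at D11, and at D14, against 1 UMI, the ratio was 127-fold with a log2 interval of 4.51 to 12.30. Cd300c2 was 3.72-fold higher in naive blood (log2 ratio 1.89 [1.63 to 2.17]), 7.62-fold at D11 (2.93 [2.65 to 3.23]) and 14.2-fold at D14 (3.83 [2.98 to 4.83]). The larger ratio at D14 stood beside a cMono-like level of 30.5 CPM, against 144 CPM in naive blood.

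Cd300a and Cd300lb were also higher in ncMono-like cells, by smaller ratios. The log2 ratio of Cd300a was 0.91 [0.74 to 1.08], 0.77 [0.61 to 0.93] and 0.71 [0.41 to 1.04] for naive, D11 and D14. That of Cd300lb was 0.98 [0.55 to 1.41], 1.11 [0.74 to 1.48] and 1.59 [0.77 to 2.55]. For Cd300lf it was -0.42 [-1.27 to 0.40], -1.12 [-1.85 to -0.43] and -0.57 [-1.06 to -0.04].

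Of the 6 members, 3 were at least 2-fold higher in ncMono-like cells in naive blood, 4 at D11 and 4 at D14, against 14.9%, 12.3% and 16.9% of all genes with at least 50 CPM. Among those counted, Cd300e and Cd300ld met 50 CPM only through their ncMono-like level in every library. At D14 so did Cd300c2 and Cd300lb, at 30.5 and 33.3 CPM in cMono-like cells. At D11 Cd300lf was at least 2-fold lower, as were 7.95% of genes, but at 16.8 and 36.6 CPM it was below the 50 CPM that this share required. TMM scaling factors were taken over the myeloid, lymphoid and erythroid-like sums together, and at D14 were 1.45 for ncMono-like and 1.86 for cMono-like cells. They thus raised D14 ratios whose median over all genes was already 0.11. With these factors 1197 genes were higher and 319 lower at D14, where CPM gave 717 and 552. Without ribosomal protein, mitochondrial and hemoglobin genes these numbers were 613 and 736. The median log2 ratio over the members was 1.44, 2.02 and 2.71, against 0.18, 0.10 and 0.11 over all genes. Cd300e and Cd300ld are named in the study among the genes that define its ncMonos in these libraries, so their direction here is not independent of it.

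The cMono gate took few cells because many monocytes met the ncMono gate as well (90, 154 and 133 cells met both). A cluster of 185, 292 and 163 cells, named from the same markers with the CD300 genes left out, held all 20 gated cells of D14, which were 12.3% of that cluster, and 143 more of its cells met 2 gates. In its cells Cd300ld was at 17.7, 8.81 and 14.8 CPM, Cd300e at 0, 0.503 and 2.80 CPM, and Cd300c2 at 177, 113 and 68.9 CPM. With clusters the log2 ratio at D14 was 4.52 for Cd300ld, 7.02 for Cd300e and 2.61 for Cd300c2. With gates of only 2 markers, which left 2 cMono-like cells at D14, these ratios were 0.19, 0.32 and 0.43, and that of Cd300lb turned to -1.59. The D14 median over the members was 1.91 with clusters.

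In ncMono-like cells some members were higher and others lower in leukemic than in naive blood. The 6 members together held 1979, 2167 and 1744 CPM in naive, D11 and D14 cells. Cd300a made up 38.7%, 25.3% and 23.2% of their UMIs, while Cd300e made up 11.8%, 20.8% and 22.0% and Cd300ld 14.5%, 20.2% and 20.3%. The median log2 ratio of D14 over naive was -0.00 for the members, which ranged from -0.92 to 1.58, and 0.00 for all genes. From D11 to D14 it was -0.35 for the members and 0.06 for all genes.

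Among the inhibitory members, Cd300a was lower in leukemic blood and Cd300lf was higher at D14. Cd300a went from 765 CPM in naive cells to 549 at D11 and 405 at D14, with log2 ratios of -0.48 [-0.62 to -0.34] and -0.92 [-1.04 to -0.79]. Cd300lf had 22, 27 and 402 UMIs, or 23.2, 16.8 and 69.2 CPM. On the log2 scale D11 stood at -0.46 [-1.33 to 0.42] from naive, D14 at 1.58 [0.96 to 2.27] from naive and D14 at 2.04 [1.48 to 2.66] from D11. The D14 level was outside the intervals of both other libraries, which overlapped each other.

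The ratio of Cd300lf at D14 over naive depended on how cells that met 2 gates were treated. Its naive and D11 levels changed with this choice, and its D14 level little. Where such cells went to the class with the larger share of its markers found, the levels were 47.0, 44.5 and 67.4 CPM and the log2 ratio of D14 over naive was 0.52. In the ncMono-like cells with no UMI of the 7 neutrophil markers (46, 84 and 174 cells), Cd300lf was at 15.2 [4.93 to 35.4], 10.6 [4.26 to 21.8] and 67.4 [55.2 to 81.5] CPM, and the log2 ratio was 2.15. The neutrophil markers summed to 142, 121 and 131 CPM in all ncMono-like cells, of which 3, 0 and 0 were at 0. Their part in the result was not tested. In naive blood the 10 of 120 ncMono-like cells with the most Cd300lf UMIs held 72.7% of its 22 UMIs. At D14 the top 10 of 591 cells held 15.9% of 402 UMIs. Such shares depend on the numbers of cells and UMIs, and for Cd300a they were 22.3% and 6.45%.

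Among the activating members, Cd300e and Cd300ld were higher in ncMono-like cells of both leukemic libraries. Cd300e stood at 234 CPM in naive blood, 450 CPM at D11 and 383 CPM at D14. Its log2 ratios over naive were 0.94 [0.72 to 1.17] and 0.71 [0.51 to 0.92]. Cd300ld went from 287 CPM to 437 and 353 CPM, which are 0.61 [0.40 to 0.82] and 0.30 [0.12 to 0.49] from naive on the log2 scale. For both genes the D14 level was below that of D11, by log2 ratios of -0.23 [-0.35 to -0.11] and -0.31 [-0.43 to -0.18].

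Cd300c2 and Cd300lb were lower at D14 than in both other libraries, and their D11 intervals against naive held 0. Cd300c2 was at 535, 584 and 433 CPM, with log2 ratios over naive of 0.13 [-0.03 to 0.29] and -0.30 [-0.44 to -0.16]. For Cd300lb, at 135, 131 and 100 CPM, the log2 ratios were -0.05 [-0.37 to 0.28] and -0.43 [-0.71 to -0.14].

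At D14 1 of the 6 members was at least 2-fold higher than in naive ncMono-like cells (Cd300lf) and none was at least 2-fold lower, against 3.52% and 2.99% of 3982 genes. Cd300lf met the 50 CPM that these shares required only through its D14 level (69.2 CPM, against 23.2 CPM in naive cells). At D11 no member passed 2-fold in either direction, against 1.17% higher and 1.75% lower of 3940 genes, but Cd300lf was there below 50 CPM. From D11 to D14 Cd300lf alone was at least 2-fold higher, against 1.69% of genes, and again met 50 CPM only through its D14 level. Scaling by TMM factors raised the D14 ratios by 0.24 and the D11 ratios by 0.13 on the log2 scale, with which Cd300c2 at D14 stood at -0.06, Cd300lb at D11 at 0.09, and Cd300e at D11 passed 2-fold at 1.07. The shares of genes higher and lower were then 5.30% and 1.91% at D14 and 1.98% and 1.14% at D11. Before this scaling the median log2 ratio over all genes was 0.00 at D14 and -0.07 at D11.

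In cMono-like cells no member with a ratio passed 2-fold at D11 over naive, against 1.02% of 3742 genes higher and 1.04% lower. Cd300lf and Cd300ld were below the 50 CPM that this share required, and Cd300e had no UMI in either library. Cd300c2 stood at -0.91 [-1.27 to -0.55] and Cd300a at -0.34 [-0.53 to -0.15]. At D14, in 20 cells, Cd300lf stood at 1.73 [1.01 to 2.45] from naive and Cd300c2 at -2.23 [-3.27 to -1.35], on 37 and 11 UMIs. Cd300lb stood at -1.04 [-2.06 to -0.15] on 12 UMIs and Cd300a at -0.72 [-1.07 to -0.39] on 89. Cd300ld, on 1 UMI, stood at -1.24 [-6.74 to 1.72]. No share of all genes past 2-fold was taken for these 20 cells. In the cluster of 163 cells Cd300lf and Cd300c2 were at 85.4 and 68.9 CPM, against 58.1 and 177 CPM in its naive cells.

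**Figure D2:**
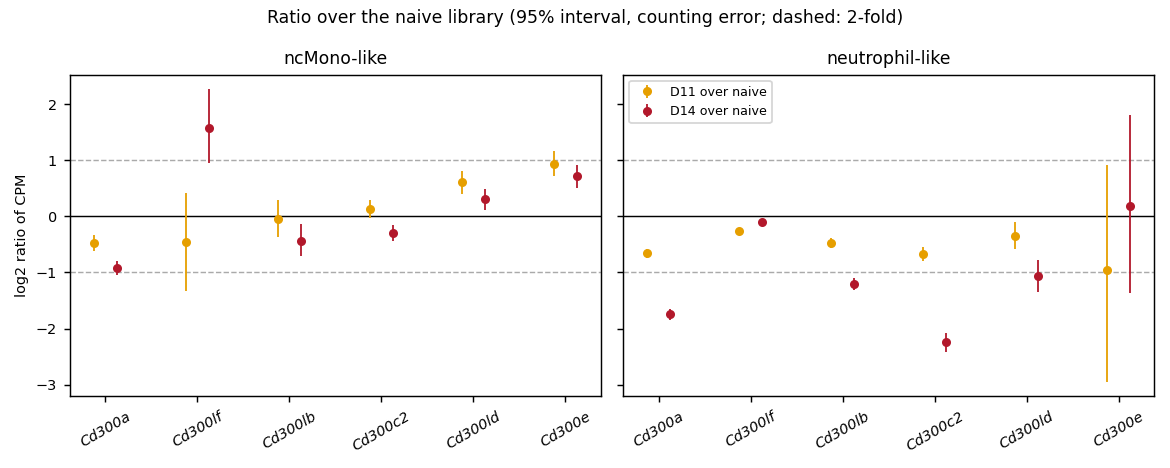
Log2 ratio of CPM over the naive library for each CD300 member at D11 and D14 in ncMono-like (left) and neutrophil-like (right) cells, with exact 95% intervals for counting error and dashed lines at 2-fold. In neutrophil-like cells Cd300c2 reaches -2.25 and Cd300a -1.75 at D14, and in ncMono-like cells only Cd300lf at D14 lies beyond a dashed line.

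In neutrophil-like cells 4 members were lower at D14 and Cd300lf stayed near its naive level, so that Cd300lf came to hold most of the transcripts of the family. Cd300c2 was at 268, 169 and 56.5 CPM in naive, D11 and D14 cells and Cd300a at 596, 378 and 178 CPM. Their log2 ratios of D14 over naive were -2.25 [-2.43 to -2.07] and -1.75 [-1.85 to -1.64]. Cd300lb, at 421, 303 and 183 CPM, had a ratio of -1.21 [-1.31 to -1.10].

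Cd300ld, at 58.5, 46.0 and 27.9 CPM, had a log2 ratio of -1.07 [-1.35 to -0.79]. The D11 level of each of these 4 members lay between those of the other libraries, with log2 ratios over naive of -0.67 for Cd300c2, -0.66 for Cd300a, -0.48 for Cd300lb and -0.35 for Cd300ld, all with intervals below 0. Cd300lf, at 797, 664 and 740 CPM, stood at -0.26 [-0.33 to -0.20] at D11 and -0.11 [-0.17 to -0.04] at D14 on the log2 scale of CPM, and at 0.0084 and 0.24 with TMM factors. Its share of the UMIs of the 6 members went from 37.2% to 42.6% and 62.4%. Cd300e had too few UMIs for a ratio, with a log2 interval of -1.37 to 1.81 at D14.

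At D14 4 of 6 members were at least 2-fold lower in neutrophil-like cells, against 11.6% of 3082 genes (6.88% were at least 2-fold higher). Cd300e was below the 50 CPM that this share required, and Cd300ld met it only through its naive level of 58.5 CPM. At D11 none passed 2-fold in either direction, against 1.74% of genes higher and 1.68% lower (3.05% and 0.402% with TMM factors, 1.90% and 0.900% without ribosomal protein, mitochondrial and hemoglobin genes). From D11 to D14, Cd300c2 (-1.58 [-1.76 to -1.40]) and Cd300a (-1.09 [-1.20 to -0.99]) were at least 2-fold lower, against 2.81% of genes (2.92% were higher). The interval of Cd300e, on 5 and 10 UMIs, was -0.56 to 3.03. The median log2 ratio at D14 was -1.14 for the members and -0.30 for all genes. TMM factors raised all ratios by 0.34 at D14 and 0.27 at D11, after which Cd300c2 at -1.91 and Cd300a at -1.40 were the 2 members at least 2-fold lower, and 10.7% of genes were higher and 5.35% lower.

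The neutrophil-like cells of the leukemic libraries held more cells with granule transcripts, which mark younger neutrophils. The 7 neutrophil markers summed to 11192, 15120 and 24247 CPM in these cells. Cells with under 0.5% of their UMIs in 7 granule and immature neutrophil genes (Ltf, Camp, Ngp, Cebpe, Chil3, Lcn2 and Orm1) made up 98.4%, 87.6% and 63.2% of naive, D11 and D14 neutrophil-like cells. Cells with 3% or more made up 0.841%, 3.79% and 10.5%. These bounds were set after the distribution was seen, and 151 of 1330 cells at D14 lay between 0.4% and 0.6%.

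Levels of the members were lower in cells with more granule transcripts. At D14 Cd300a was at 253, 138 and 66.9 CPM in the cells with under 0.5%, 0.5% to 3% and at least 3%. Cd300c2 was at 75.2, 44.9 and 31.4 CPM, Cd300lb at 214, 190 and 99.9 CPM and Cd300ld at 38.8, 26.6 and 4.84 CPM. Cd300lf was at 850, 771 and 439 CPM. At D11 the order over the bands was the same for all 5 members, and in the naive library the upper bands held only 10 and 11 cells.

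Within the cells with under 0.5%, the lower D14 levels of Cd300a, Cd300c2, Cd300lb and Cd300ld were still present, by smaller ratios. In naive, D11 and D14 cells of this kind, Cd300a was at 612, 435 and 253 CPM and Cd300c2 at 276, 195 and 75.2 CPM. The log2 ratios of D14 over naive were -1.28 [-1.40 to -1.16] for Cd300a, -1.87 [-2.09 to -1.66] for Cd300c2, -1.01 [-1.14 to -0.88] for Cd300lb and -0.62 [-0.96 to -0.30] for Cd300ld. Cd300lf was at 813, 712 and 850 CPM, with a ratio of 0.063 [-0.011 to 0.14]. The D11 ratios over naive were -0.49 for Cd300a, -0.50 for Cd300c2, -0.34 for Cd300lb and -0.19 for Cd300lf, with intervals below 0. For Cd300ld the D11 ratio was -0.13 [-0.37 to 0.12]. The median over all genes was -0.18 at D11 and -0.25 at D14. In these cells 3 of 6 members were at least 2-fold lower at D14, against 8.32% of 3054 genes (4.42% were higher), and none was 2-fold higher. At D11 none passed 2-fold against naive, where 0.81% of genes were higher and 1.08% lower. From D11 to D14 Cd300c2 alone was at least 2-fold lower (-1.38 [-1.60 to -1.16]) and none was higher, against 2.23% and 2.91% of genes. The part of cell age in what remains was not tested.

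**Figure D3:**
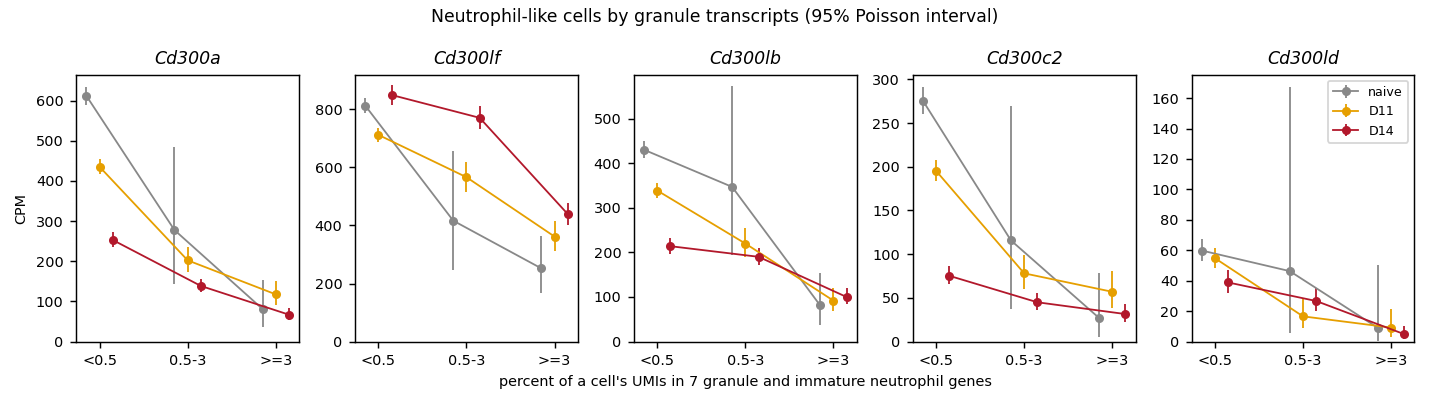
Level in CPM of 5 CD300 members in neutrophil-like cells with under 0.5%, 0.5% to 3% and at least 3% of UMIs in 7 granule and immature neutrophil genes, for each library, with exact 95% Poisson intervals. Within the lowest band Cd300a goes from 612 to 435 and 253 CPM, and Cd300lf stays between 712 and 850 CPM.

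The number of cells with a UMI was also taken once each cell was thinned to 1000 UMIs. Cd300a, Cd300e and Cd300ld then showed the same directions in ncMono-like cells as in CPM. In ncMono-like cells Cd300a was found in 52.1% [42.8 to 61.3], 42.9% [35.7 to 50.2] and 30.6% [26.9 to 34.5] of naive, D11 and D14 cells. Cd300e was found in 21.8% [14.8 to 30.4], 32.3% [25.7 to 39.4] and 32.1% [28.4 to 36.1], and Cd300ld in 17.6% [11.3 to 25.7], 36.5% [29.6 to 43.8] and 29.9% [26.3 to 33.8]. For Cd300c2 the shares were 32.8%, 41.3% and 32.0% and for Cd300lb 10.9%, 14.3% and 9.98%. At this depth their D14 shares were thus near the naive ones. With cells thinned to 2000 UMIs, D14 was lowest for both, as in CPM. These shares were 63.2%, 58.1% and 54.1% for Cd300c2 and 22.2%, 23.1% and 17.6% for Cd300lb. At both depths the naive and D14 intervals overlapped. Unthinned, Cd300a was found in 114 of 120 naive cells and in 96.3% and 93.2% at D11 and D14, Cd300e in 65.0%, 81.0% and 88.5% and Cd300ld in 74.2%, 87.3% and 91.5%. Thinning left out 1 naive ncMono-like cell.

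Cd300lf was found in 0.84%, 1.06% and 5.92% of thinned ncMono-like cells and in 0.245%, 0.369% and 1.83% of T-like cells, which should lack it. The T-like share at D14 rests on 2 of 109 cells. Unthinned, ncMono-like shares were 13.3%, 11.6% and 37.2% and T-like shares 2.52%, 2.21% and 3.67%, with median UMIs of 7602.5, 7750 and 9164 in the former and 9062.5, 7120 and 7618 in the latter. The thinned shares of all 3 libraries had intervals that overlapped those of T-like cells. At D14 these were 4.16% to 8.14% in ncMono-like and 0.223% to 6.47% in T-like cells. In thinned mature B-like cells the Cd300lf shares were 0.785%, 0.787% and 2.33%, the last from 1 of 43 cells. Unthinned, the mature B-like shares were 3.93%, 4.30% and 11.6%, so this class too was highest at D14. No T-like cell held a Cd300a, Cd300c2, Cd300ld or Cd300e UMI after thinning. Unthinned, 1.14% of naive T-like cells held a Cd300a UMI and 0.732% a Cd300c2 UMI. At the thinned depth, 0 of 1226, 271 and 109 cells allow up to 0.245%, 1.11% and 2.75% of cells with a UMI, which does not limit how many cells hold the transcript.

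In thinned neutrophil-like cells Cd300lf was found in 54.2%, 47.5% and 53.2%, Cd300a in 45.0%, 31.3% and 19.1% and Cd300c2 in 23.3%, 16.0% and 5.63% of naive, D11 and D14 cells. Unthinned, these shares were 87.4%, 82.1% and 82.8% for Cd300lf, 81.1%, 67.7% and 45.6% for Cd300a and 53.4%, 40.7% and 19.4% for Cd300c2. Cells with at least 3 different members were 18.7%, 10.8% and 4.79% of thinned neutrophil-like cells and 12.6%, 23.8% and 12.2% of thinned ncMono-like cells. At this depth the 2 classes thus differed in how many members were found in a cell across libraries. Naive was highest for neutrophil-like and D11 for ncMono-like cells. Unthinned, the shares were 71.6%, 57.2% and 36.1% of neutrophil-like cells. Those of ncMono-like cells were 84.2%, 92.6% and 95.6%, with D14 highest. Thinning left out 17 of 1308, 55 of 1663 and 141 of 1330 neutrophil-like cells, which had under 1000 UMIs. The thinned shares thus miss an unequal part of this class.

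**Figure D4:**
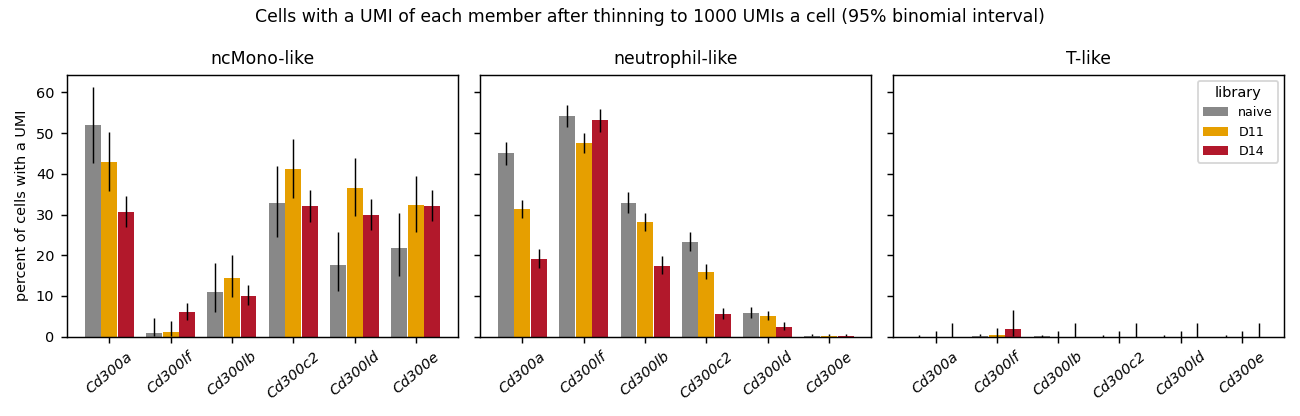
Percent of cells with at least 1 UMI of each CD300 member after thinning every cell to 1000 UMIs, in ncMono-like, neutrophil-like and T-like cells of the naive, D11 and D14 libraries, with exact 95% binomial intervals. Cd300a bars go from 52.1% to 30.6% in ncMono-like cells and T-like bars stay below 2%.

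Over all kept cells, the UMIs of the family shifted from neutrophil-like to ncMono-like cells. In naive blood 53.7% of Cd300a UMIs were in neutrophil-like and 13.8% in ncMono-like cells, and at D14 the shares were 21.4% and 47.4%. For Cd300c2 the ncMono-like share was 20.3%, 32.0% and 70.5% in naive, D11 and D14 cells, for Cd300ld 39.9%, 56.5% and 79.0% and for Cd300lb 4.99%, 7.77% and 27.9%. Cd300e was mostly in ncMono-like cells throughout (76.8%, 87.3% and 87.2%). Cd300lf was mostly in neutrophil-like cells throughout (86.3%, 85.4% and 78.2%). Shares follow the number of cells in a class as well as the level in it, and ncMono-like cells went from 3.15% to 13.4% of cells. Cells that met 2 gates held between 9.66% and 28.9% of the UMIs of a member.

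**Figure D5:**
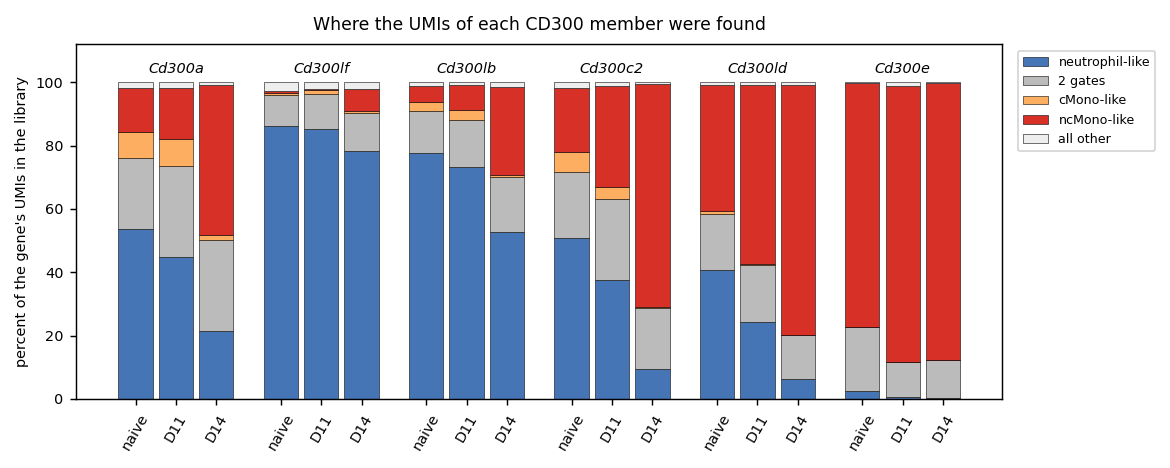
Percent of the UMIs of each CD300 member found in neutrophil-like cells, cells that met 2 gates, cMono-like, ncMono-like and all other cells, in the naive, D11 and D14 libraries. The ncMono-like part of Cd300c2 grows from 20.3% to 70.5%, and the neutrophil-like part of Cd300lf stays at 78.2% or above.

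Summed over all cells kept and without hemoglobin UMIs, Cd300e was at 11.2, 35.8 and 56.5 CPM and Cd300ld at 26.4, 53.8 and 57.5 CPM in naive, D11 and D14 blood. Cd300a was at 204, 239 and 110 CPM, Cd300lf at 169, 220 and 125 CPM, Cd300lb at 99.4, 117 and 46.1 CPM and Cd300c2 at 96.8, 126 and 79.1 CPM. These 4 members were thus highest at D11 only without hemoglobin, which took 37.4% of the D11 UMIs. With hemoglobin counted they were highest in naive and lowest in D14 blood, with Cd300a at 199, 149 and 97.0 CPM, Cd300lf at 165, 138 and 111 CPM, Cd300lb at 97.0, 73.1 and 40.6 CPM and Cd300c2 at 94.4, 79.2 and 69.8 CPM. Cd300e, at 10.9, 22.4 and 49.8 CPM, and Cd300ld, at 25.8, 33.6 and 50.7 CPM, kept their order. Pro-B-like cells also entered these sums, with 2887024 of 36950092 UMIs kept at D11 and 19618662 of 51192755 at D14, and 0 in naive blood. They held 7 and 58 UMIs of the 6 members at D11 and D14. Levels without pro-B-like cells were not taken, so the low D14 values are not levels in myeloid cells. In such sums the number of cells of a type and the RNA per cell cannot be told apart.

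Adaptor and signalling genes of the family were described in the same way. Of 13 listed genes, 11 had at least 50 CPM, and none was 2-fold higher or lower in ncMono-like, cMono-like or neutrophil-like cells in any comparison. In ncMono-like cells their median log2 ratio of D14 over naive was 0.07, with Fcer1g, the Fc receptor gamma chain, at 0.50 [0.42 to 0.58] and Tyrobp at -0.08 [-0.16 to 0.00]. In neutrophil-like cells the median was -0.34, near the -0.30 of all genes. There Tyrobp, the adaptor of Cd300lb and Cd300e, was at 3462, 2813 and 1852 CPM (log2 ratio -0.90 [-0.94 to -0.87]) and the kinase gene Syk was at -0.95 [-1.01 to -0.88]. The phosphatase gene Ptpn6 was at 0.26 [0.08 to 0.45] in ncMono-like and -0.50 [-0.59 to -0.40] in neutrophil-like cells.

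Of 8 other genes next to the cluster on chromosome 11, only the scaffold gene Slc9a3r1 had 50 CPM or more in D14 ncMono-like cells, at 26.4, 40.5 and 53.9 CPM (log2 ratio 1.03 [0.44 to 1.68]). In neutrophil-like cells 2 reached 50 CPM in naive or D14 cells, and neither passed 2-fold. The remaining 6 features whose symbol starts with Cd300 were low. Cd300ld4 had no UMI, Cd300ld2, Cd300ld5 and Cd300c had at most 14 in a library, and Cd300ld3 reached 27.4 CPM [17.9 to 40.2] in naive ncMono-like cells. Cd300lg was at 36.6, 49.0 and 13.9 CPM in cMono-like cells, which held 39, 71 and 5 of its UMIs, while cells that met 2 gates held 40, 97 and 72.

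Genes of such a family can share reads. The last 500 bases of each gene's GENCODE transcripts were compared, in words of 31 bases, with the whole transcripts of the other CD300 genes. Cd300e, Cd300ld and Cd300lb shared none, while Cd300a shared 2.09% and Cd300c2 10.2% of such words, each with more in the other than in any further gene. Cd300lf shared 9.14%, most often with Cd300ld, in a stretch before the last 500 bases of Cd300ld. The share was 100% for Cd300ld3 and Cd300ld5, 93.4% for Cd300ld4 and 48.7% for Cd300ld2, so the low or absent counts of these 4 genes are uncertain.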

How the data were processed

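PB leukocytes after red cell lysis and dead cell removal were profiled with Chromium 3′ v3 reagents, 1 library per condition. The deposited values are the authors' filtered Cell Ranger matrices of raw UMI counts per gene and barcode, not normalized. Per the file headers the version was 5.0.1, whereas the submitters' processing notes name 7.1.0 and mm10; the annotation is not given in the sources used here. The deposited feature and barcode tables are identifiers.

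Barcodes were required to have 200 genes or more and no more than 10% of UMIs from mitochondrial genes, and were gated with 13 marker lists (at least 3 markers with a UMI; 1 erythroid marker was absent from the features). Cells that met 2 gates were set aside; as an alternative, doublets called by Scrublet (116, 167 and 156 cells of naive, D11 and D14) were removed. UMIs were summed per class and library as CPM, with exact Poisson, Clopper-Pearson and conditional binomial 95% intervals (Python 3.11.15, scipy 1.17.1), a floor of 3 counts for 0 UMIs, and shares of all genes with at least 50 CPM past 2-fold. Clusters (scanpy 1.11.5, leidenalg 0.10.2), TMM factors (edgeR 4.0.16, R 4.3.3) and other alternatives are described in the closing section. No statistical test was run, since no condition was replicated. Ratios and intervals were run on counts simulated under the Poisson model that the intervals assume, so spread beyond counting error was not checked. Gates were run on simulated naive ncMono-like, neutrophil-like, T-like and mature B-like cells, and not on cMono-like cells. Sums ranged from 360251 to 6536916 UMIs in the 3 myeloid classes; in the smallest, 3 UMIs are 8.33 CPM. Motif letters were matched on both strands of RefSeq windows of GRCm38.p6, and positions are those of GENCODE vM21.

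The named genes were the 6 members, the other Cd300 features, 13 adaptor and signalling genes, 8 neighbours and, for each member, the 3 genes most like it. Members and lists were chosen with earlier results of these data known. How gates were scored and the bounds of the granule bands were set after the data were seen.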

Additional observations from a re-analysis of the deposited data

Results flagged for a closer look

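Ratios over naive lay on opposite sides of 1 in ncMono-like and neutrophil-like cells, with both counting intervals excluding 1, for 2 members. For Cd300ld the log2 ratio in ncMono-like cells exceeded that in neutrophil-like cells by 0.95 at D11 (0.61 against -0.35) and by 1.37 at D14 (0.30 against -1.07). For Cd300lf it did so by 1.68 at D14 (1.58 against -0.11), although the neutrophil-like value was 0.24 with TMM factors. These differences were not tested, because each class has 1 library per condition.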

How the results depend on the processing

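No paired analysis was possible because each condition has 1 library, and no library could be left out. Of 308 ratios over naive, members and medians, each recomputed under an alternative, 4 moved by over 1.5 times and 16 had another sign, of which 8 were medians of the members near 0. The other 8 were 3 of Cd300lf in neutrophil-like cells, given next, and, with main intervals that held 0, Cd300lb in ncMono-like cells at D11 (0.086 with TMM factors, 0.016 without ribosomal protein, mitochondrial and hemoglobin genes) and Cd300e in neutrophil-like cells (0.63 at D11 with clusters, -0.11 at D14 with under 0.5% granule UMIs and -0.063 at D14 with gates of 2 markers). Where no construction is named, the cause was not tested. Cd300lf in neutrophil-like cells turned to 0.0084 at D11 and 0.24 at D14 with TMM factors, and to 0.063 at D14 in the cells with under 0.5% granule UMIs. With gates of 2 markers, which left 2 cMono-like cells at D14, Cd300lb in ncMono-like over cMono-like cells turned to -1.59, the median of the members was 0.25, and 0 members were higher and 1 lower. Cd300lf at D11 in the same comparison turned to 0.24 with cells of 2 gates resolved. There the count of members lower at D11 was 0 with gates of 2 markers, of 4 markers and with cells of 2 gates resolved. In naive blood it was 1 with clusters and with ncMono-like cells free of neutrophil markers.

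In ncMono-like cells the count of members higher was 0 at D14 with cells of 2 gates resolved, and 1 at D11 with TMM factors and without ribosomal protein, mitochondrial and hemoglobin genes. With TMM factors the D14 median was 0.24. In neutrophil-like cells the count lower was 1 at D11 with gates of 4 markers and 2 at D14 with TMM factors. The count higher at D14 was 1 (Cd300e, on few UMIs) with clusters and with cells of 2 gates resolved, and the D14 median was -0.84 with clusters, -0.82 in the cells with under 0.5% granule UMIs and -0.79 with TMM factors. The bounds for granule UMIs and the choice of ncMono-like cells free of neutrophil markers were made after seeing the data.

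The number of all genes past 2-fold, by construction, followed the minimum level. At 20 CPM, at 200 CPM, with no minimum, and at 1.5-fold it was 406, 21, 3557 and 638 in ncMono-like cells at D11 and 534, 79, 6888 and 702 at D14. In neutrophil-like cells it was 212, 36, 5818 and 444 at D11 and 989, 183, 7132 and 1271 at D14. Between ncMono-like and cMono-like cells it was 1800, 434, 5703 and 2082 in naive blood, 1329, 317, 5344 and 1701 at D11 and 2030, 490, 9129 and 2309 at D14. Depth limits Cd300e outside ncMono-like cells, Cd300ld in cMono-like cells and all values of the 20 cMono-like cells at D14.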
